A study of Mus musculus with 4 samples.

Results

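The data described here are the CD4 T cells of the mesenteric lymph nodes of colonized mice, compared cluster by cluster between a strain that lacks the Foxp3 enhancer CNS1 and its control. The members are the cells that the authors kept after filtering in the colonized libraries, 9436 of the 16948 kept cells of the series. The colonized Foxp3CNS1- library held 5406 of them, from male mice that carry the CNS1 deletion. The colonized Foxp3GFP library held 4030, from male mice with an intact CNS1. Mice of both genotypes were raised germ-free and given the fecal microbiota of specific-pathogen-free (SPF) animals. Their nodes were taken 9 days later and pooled over 3 mice for each library. From each pool, CD4 T cells positive and negative for GFP, which marks Foxp3 expression in these strains, were sorted and mixed 50% to 50%, so the share of regulatory cells in a library was set by the sort. The other 2 libraries of the series, from germ-free Foxp3CNS1- and germ-free Foxp3GFP mice, held 3533 and 3979 kept cells and served as a second look at the same genotype difference.

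Foxp3 is the lineage-defining transcription factor of regulatory T cells (Treg cells), which restrain immune responses. CNS1 is a noncoding enhancer within the Foxp3 gene that responds to TGF-beta signalling and is needed for conventional CD4 T cells to turn into Treg cells outside the thymus, while Treg cells made in the thymus depend on it little. In the intestine and its draining nodes such extrathymic Treg cells are known for restraining responses to the microbiota and to food.

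The authors' 10 PhenoGraph clusters, which are numbered from 0, were taken as deposited, and the 9 with at least 50 cells in both libraries were compared. They held 5382 Foxp3CNS1- and 4012 Foxp3GFP cells. Cluster 9, with 24 and 18 cells, was left out. Of 15 Treg markers in the table, 12 were above the level of the remaining cells in cluster 0, 15 in cluster 3 and 13 in cluster 6, so these clusters are called Treg-like; cluster 6 has 1 Treg marker, Gpr83, among its 10 leading genes and is led by Gsta4. Clusters 1 and 2 are naive-like, with all 12 naive markers above the remaining cells, cluster 5 is effector/memory-like with 13 of 13 and cluster 8 is proliferating-like with 14 of 14. Clusters 4 and 7 stay unnamed, since no marker of any fixed list was among their 10 leading genes, which include Slc39a1 and Notch2 in cluster 4 and Actb in cluster 7. By the count of markers above the remaining cells, cluster 4 had 11 of 12 naive markers. Cluster 7 had 13 of 13 effector/memory and 14 of 14 proliferation markers. Genes of CD4 T cells stood close between the libraries. Cd3e, a subunit of the T cell receptor complex, stood at 372 CPM (UMI counts scaled to a total of 1000000) in Foxp3CNS1- and 392 CPM in Foxp3GFP cells, and Cd4 at 138 and 149 CPM. A Cd4 UMI was found in 32.9% of Foxp3CNS1- and 35.9% of Foxp3GFP cells. The CD8 T cell gene Cd8a reached 7.51 and 3.44 CPM, and the B cell gene Cd79a 3.25 and 3.81 CPM. Immunoglobulin-rich cells, those with at least 10 immunoglobulin UMIs, were 369 of 5406 in Foxp3CNS1- and 236 of 4030 in Foxp3GFP. Cells with 3 or more UMIs of myeloid marker genes were 122 and 64. These cells stayed in the comparison except where their removal is named.

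Depth was close between the genotypes. The Foxp3CNS1- cells carried 17929193 unique molecular identifier (UMI) counts in all and the Foxp3GFP cells 13437705. In the 8 clusters other than cluster 8 the median per cell ranged between 2206 and 3036 UMIs over both libraries, and in the proliferating-like cluster 8 it was 7392 in Foxp3CNS1- and 6982.5 in Foxp3GFP cells. The libraries shared 34 cell barcodes, and leaving those cells out moved none of the counts given here past 1.5 times. There is 1 library for each group, so no difference here has a replicate check, and a library effect and a genotype effect cannot be told apart. Each value is the CPM ratio of counts summed over the cells of a cluster, Foxp3CNS1- over Foxp3GFP, as log2, with an exact 95% interval that covers counting error only and not the variation between mice. A gene counts as measured in a cluster from 50 UMIs over both libraries. In a summed cluster, fewer cells that express a gene and less RNA per cell cannot be told apart.

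Foxp3 itself (chrX:7573644-7595245, plus strand, GRCm38) was lower in Foxp3CNS1- cells in 8 of the 9 clusters. The deleted CNS1 is noncoding, so the counts do not check the deletion. The highest Foxp3 level was in Treg-like cluster 3, with 229 CPM in Foxp3CNS1- and 259 CPM in Foxp3GFP cells (log2 ratio -0.18, interval -0.39 to 0.04). It stood at 138 and 155 CPM in Treg-like cluster 0 and at 115 and 141 CPM in Treg-like cluster 6, and both intervals reached 0. The wider gaps were outside the Treg-like clusters, where Foxp3 is low. In naive-like cluster 2 it was 20.6 CPM in Foxp3CNS1- and 42.7 CPM in Foxp3GFP cells, from 31 and 64 UMIs (-1.05, -1.72 to -0.41). Proliferating-like cluster 8 had 30.8 and 55.1 CPM (-0.84, -1.30 to -0.37) and effector/memory-like cluster 5 had 77.7 and 101 CPM (-0.38, -0.70 to -0.04). These are the 3 clusters whose interval lay below 0. Naive-like cluster 1 had 9.70 and 15.4 CPM and unnamed cluster 7 had 55.5 and 82.9 CPM, with intervals that reached 0. Cluster 4 was the exception, at 93.0 CPM in Foxp3CNS1- and 76.8 CPM in Foxp3GFP cells. With the cluster mix held fixed, by pooling the ratios within clusters, the log2 ratio of Foxp3 was -0.26 (-0.37 to -0.15) in colonized mice and -0.07 (-0.21 to 0.07) in the germ-free pair. Without regard to clusters Foxp3 stood at 89.5 CPM in Foxp3CNS1- and 95.4 CPM in Foxp3GFP cells, a total that the sorted mixture bears on.

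**Figure D1:**
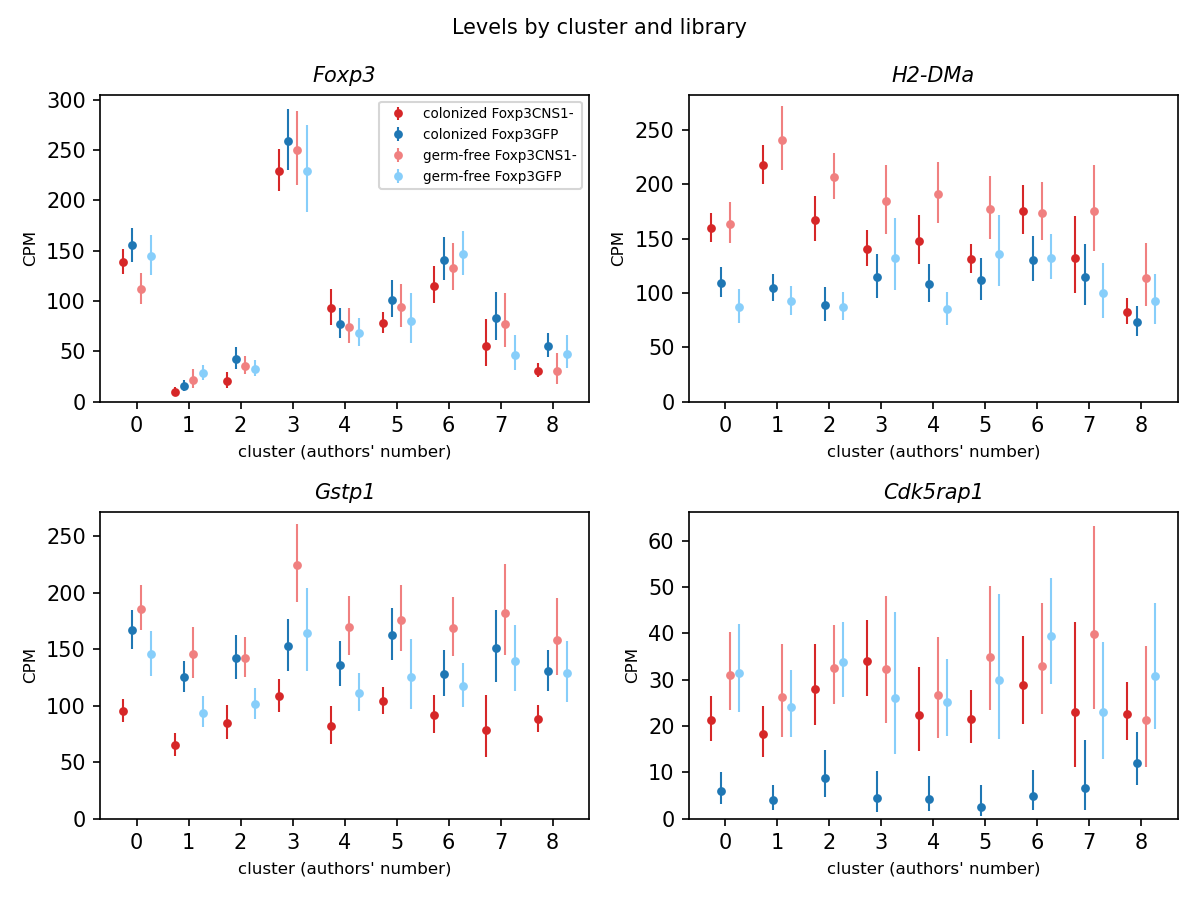
Level of Foxp3, H2-DMa, Gstp1 and Cdk5rap1 in CPM in each of the 9 compared clusters, for the 4 libraries; points are the level of the summed counts and bars the 95% Poisson interval. Foxp3 is below its Foxp3GFP level in 8 of 9 clusters of colonized Foxp3CNS1- cells, and for Cdk5rap1 the colonized Foxp3GFP library stands below the other 3.

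Most genes were close between the genotypes in most clusters. The count of genes past 1.5-fold is the background for each list below. In Treg-like cluster 0, 2.89% of 7168 measured genes were higher and 2.22% lower in Foxp3CNS1- cells, in cluster 3 it was 2.99% and 3.46% of 5896, and in cluster 6 it was 4.32% and 2.51% of 4979. In naive-like cluster 1 the shares were 1.99% higher and 3.38% lower of 6185, and in cluster 2 they were 2.26% and 3.74% of 4995. Cluster 4 had 3.17% and 3.35% of 4896, effector/memory-like cluster 5 had 3.07% and 4.21% of 6252, cluster 7 had 5.16% and 4.32% of 2638, and proliferating-like cluster 8 had 3.55% and 2.98% of 6274. Cluster 7, with 111 and 162 cells the smallest, thus had the largest shares in both directions, and no cluster's median log2 ratio over all genes was farther from 0 than the 0.05 of cluster 6. Of the 5538 genes measured in at least 5 clusters, 3829 (69.1%) passed 1.5-fold in no cluster. In exactly 1 cluster 807 genes were past it on the higher side and 729 on the lower side, against 28 and 41 genes in 3 or more clusters. Among these genes, 165 passed in opposite directions in different clusters.

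Past 1.5-fold in every cluster where they were measured were 1 gene on the higher side (0.0181% of 5538) and 1 on the lower side (0.0181%). The higher one was Cdk5rap1, an enzyme that modifies mitochondrial transfer RNAs (chr2:154335380-154373010, minus strand, GRCm38). It had 23.8 CPM in colonized Foxp3CNS1- and 5.90 CPM in colonized Foxp3GFP cells. Its log2 ratio was 1.84, 2.20 and 1.69 in clusters 0, 1 and 2, 2.94 in cluster 3, 3.10 in cluster 5 and 0.91 in cluster 8. In clusters 4, 6 and 7 it was under 50 UMIs, with 26, 39 and 10 UMIs in Foxp3CNS1- and 6, 6 and 4 in Foxp3GFP cells, again higher in Foxp3CNS1- cells. The germ-free libraries were close to each other in Cdk5rap1: germ-free Foxp3CNS1- cells had 30.8 CPM and germ-free Foxp3GFP cells 29.7 CPM (0.02, -0.21 to 0.26, cluster mix fixed). Of the 4 libraries, it is thus the colonized Foxp3GFP one that stood apart in this gene. Without cells that hold 3 or more UMIs of myeloid marker genes, the ratio in cluster 8 was 0.58, just inside 1.5-fold, so that Cdk5rap1 no longer passed in every cluster.

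The lower one was mt-Atp8, a mitochondrially encoded subunit of ATP synthase (chrM:7766-7969, plus strand), with 20.1 CPM in colonized Foxp3CNS1- and 43.5 CPM in colonized Foxp3GFP cells. Its log2 ratio lay between -1.34 and -0.86 in the 8 clusters where it was measured. In cluster 7 it had 13 UMIs in Foxp3CNS1- and 21 in Foxp3GFP cells. Scaled to the cluster totals these are 30.0 and 34.8 CPM, a smaller gap with overlapping intervals. In the germ-free pair mt-Atp8 was 39.1 CPM in Foxp3CNS1- and 68.1 CPM in Foxp3GFP cells (-0.79, -0.97 to -0.60, cluster mix fixed). This gene thus differed in one direction in both pairs of libraries. The mt-Atp8 reading frame overlaps that of mt-Atp6, and the sources used here do not say how the counting divided reads between them. The mt-Atp6 gene, named after its values were seen, had a log2 ratio of 0.10 in colonized and -0.08 in germ-free cells, at 5638 CPM in colonized Foxp3CNS1- and 5300 CPM in colonized Foxp3GFP cells.

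Many more genes kept one direction over the clusters with small differences. Of the same 5538 genes, 119 (2.15%) were higher and 166 (3.00%) lower in Foxp3CNS1- cells in every cluster where measured. A further condition, chosen after the data were seen, kept those also past 1.4-fold with the cluster mix fixed, and left 6 higher (0.108%) and 13 lower (0.235%), among them Cdk5rap1 and mt-Atp8. Of the 19, 5 are predicted genes. In the paragraphs on these genes, levels are over the compared clusters together. Ratios given without a cluster hold the cluster mix fixed, so they need not equal the ratio of those levels.

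On the higher side, H2-DMa, a chain of the H2-DM protein that helps load peptides onto MHC class II, had 151 CPM in colonized Foxp3CNS1- and 105 CPM in colonized Foxp3GFP cells. Its log2 ratio was 1.06 and 0.92 in naive-like clusters 1 and 2, and 0.17 to 0.55 in the other 7. In the germ-free pair the difference was larger, with 186 CPM in Foxp3CNS1- and 98.8 CPM in Foxp3GFP cells (0.91, 0.80 to 1.02, against 0.57, 0.48 to 0.66, in colonized cells). Cd160, a receptor of the immunoglobulin family that binds HVEM, had 23.4 CPM in Foxp3CNS1- and 14.5 CPM in Foxp3GFP cells (0.50), and 27.6 and 17.3 CPM in the germ-free pair (0.48). Cxcr6, the receptor of the chemokine Cxcl16, had 34.9 and 19.7 CPM (0.49) and, in the germ-free pair, 27.6 and 10.6 CPM (1.16). These 3 genes were therefore higher in Foxp3CNS1- cells with and without colonization. The predicted genes Gm2000 (0.52) and Gm42031 (0.56) were not: their germ-free ratios were -0.29 and -0.11.

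On the lower side, Gstp1, a glutathione transferase, had 90.5 CPM in colonized Foxp3CNS1- and 143 CPM in colonized Foxp3GFP cells. It was lower in all 9 clusters, by log2 ratios between -0.94 and -0.48, but higher in the germ-free pair, at 169 CPM in Foxp3CNS1- and 118 CPM in Foxp3GFP cells (0.48, 0.37 to 0.59). Its paralog Gstp2 is close in sequence, so counts between them are uncertain. Polr2l, a small RNA polymerase subunit, likewise had 66.1 and 102 CPM in the colonized pair (-0.65) and 85.4 and 59.4 CPM in the germ-free pair (0.55). The noncoding Snhg9, at 23.3 and 36.0 CPM (-0.65), also had a germ-free ratio above 0 (0.62). For these genes the sign of the difference was opposite in the pairs.

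Otulin, which removes linear ubiquitin chains, had 20.5 CPM in Foxp3CNS1- and 29.4 CPM in Foxp3GFP cells (-0.56) and was lower in the germ-free pair too, at 21.0 CPM in Foxp3CNS1- and 42.0 CPM in Foxp3GFP cells. Il6st, the signal-transducing receptor chain gp130 shared by IL-6 and its relatives, had 42.7 and 60.8 CPM (-0.53), and -0.23 (-0.40 to -0.07) in the germ-free pair. Hopx, a homeodomain protein, had 31.6 and 47.1 CPM (-0.70), with a germ-free interval that reached 0 (-0.15, -0.39 to 0.10). Hsh2d (-0.51), an SH2 adaptor of blood cells, and the long noncoding Tug1 (-0.51) and B930036N10Rik (-0.51) were in the same range. Gm49980 (-0.69) and the Y-linked predicted gene Gm47283 (-0.71, at 66.1 CPM in Foxp3CNS1- and 112 CPM in Foxp3GFP cells) were also lower. Over all 19 genes the germ-free ratio had the colonized sign in 10, of which 6 had an interval off 0, and the opposite sign in 9, of which 5 did. Over all 5538 genes, the mix-fixed ratios of the colonized and germ-free pairs, which share no library, had a Pearson r of 0.239; this is a description across genes, which are not independent replicates.

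**Figure D2:**
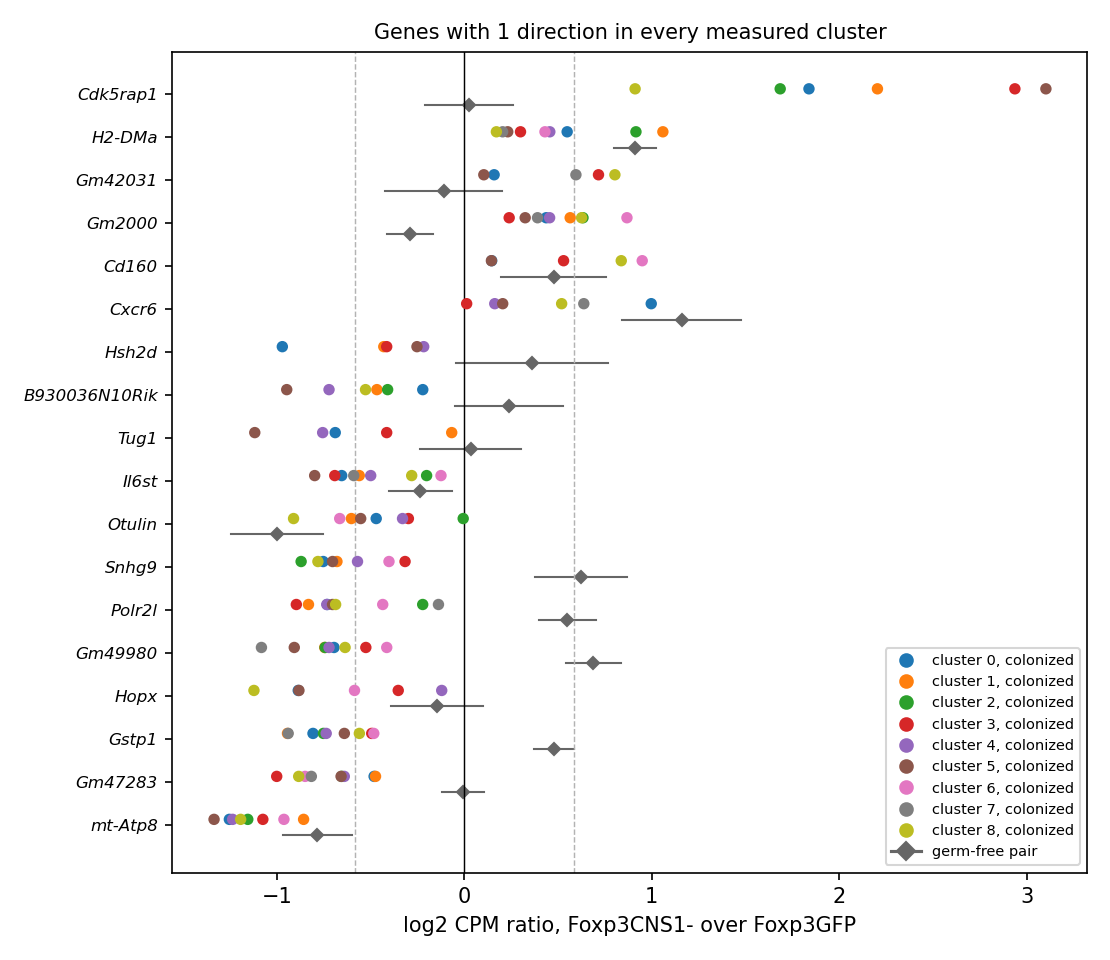
Log2 CPM ratio, Foxp3CNS1- over Foxp3GFP, of 18 of the 19 genes that kept one direction in every cluster where measured and passed 1.4-fold with the cluster mix fixed; dots are clusters of the colonized pair, grey diamonds the germ-free pair with the mix fixed and its 95% counting interval, dashed lines 1.5-fold. Cdk5rap1 and mt-Atp8 have all their dots past 1.5-fold, and Gstp1, Polr2l and Snhg9 have dots and diamond on opposite sides of 0.

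Interferon-stimulated genes lay below 0 in Foxp3CNS1- cells over all clusters, by little in each. Type I and type II interferons switch on genes against viruses and other intracellular microbes, and CD4 T cells carry both receptors. Of 43 list members in the table, 39 were measured in at least 5 clusters, and all 39 were below 0 with the cluster mix fixed, where 46.5% of all genes measured in that many clusters were. The differences were small: the median of the 39 was -0.23, against 0.01 over all genes, and none of the 39 was past 1.5-fold. Of the 39, 15 were lower in every cluster where measured and 0 were higher in every one. The list median was below 0 in each cluster, at -0.21, -0.34 and -0.27 in Treg-like clusters 0, 3 and 6, -0.17 and -0.16 in naive-like clusters 1 and 2, -0.21 in cluster 4, -0.28 in effector/memory-like cluster 5, -0.42 in cluster 7 and -0.14 in proliferating-like cluster 8. The members below 0 were 37 of 40, 39 of 40 and 32 of 38 in clusters 0, 3 and 6, 38 of 42 and 29 of 37 in clusters 1 and 2, 32 of 37 in cluster 4, 35 of 39 in cluster 5, 29 of 30 in cluster 7 and 23 of 31 in cluster 8. Few of them were far below 0. Past 1.5-fold on the lower side were 8 of 30 members in cluster 7, where 4.32% of all genes were. It was 5 of 40 in cluster 3 (3.46% of all genes) and 4 of 38 in cluster 6 (2.51%). In clusters 0, 1 and 5 it was 1 of 40 (2.22%), 1 of 42 (3.38%) and 1 of 39 (4.21%), not clearly above the share over all genes. Clusters 2, 4 and 8 had 2 of 37 (3.74%), 2 of 37 (3.35%) and 2 of 31 (2.98%). Of the 26 lists, 1 other had a median below 0 in all 9 clusters, the homing receptors, between -0.26 and -0.03. In the germ-free pair 28 of the 39 interferon-stimulated members were below 0, with a median of -0.05, and the cluster medians lay between -0.10 and 0.07.

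The size of the differences shows in a few members. Where no cluster is named, levels are over the compared clusters together. The ratio beside them holds the cluster mix fixed, so it need not equal the ratio of those levels. Ifi27l2a had 1994 CPM in Foxp3CNS1- and 2241 CPM in Foxp3GFP cells (-0.28), Ly6a, a surface protein of activated T cells, 523 and 600.0 CPM (-0.30), and Zbp1, a sensor of unusual nucleic acids, 146 and 179 CPM (-0.32). They were lower in all 9 clusters, as were Isg20, Rtp4, Ifi203, Ifi209, Xaf1, Gbp7 and Ly6e, which had a ratio of only -0.14. Ifi213, Ifi214, Phf11c and Slfn8 were lower in each of the 7 or 8 clusters where they were measured. The wider differences were in single clusters and rested on fewer counts: Gbp2, a guanylate-binding GTPase, had 23.1 CPM in Foxp3CNS1- and 74.6 CPM in Foxp3GFP cells of cluster 7, from 10 and 45 UMIs (-1.69). In Treg-like cluster 3, Irf7, an interferon regulatory factor, had 141 and 215 CPM (-0.61) and Ifit3 113 and 178 CPM (-0.66). In cluster 4, Ifit3 had 57.7 and 104 CPM (-0.85). Summed over the list, the level in cluster 3 was 11269 CPM in Foxp3CNS1- and 13975 CPM in Foxp3GFP cells.

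The promoters of these genes are known to carry interferon-stimulated response elements, and 3 are printed to show such an element in members that were lower in every cluster where measured. They are RefSeq windows from 250 bases before to 50 after the annotated start (GRCm38.p6), written 5′ to 3′ on the gene's strand, with capitals on the match to GAAA, any 2 bases and GAAA, or to its reverse complement. They are Slfn8 (chr11:83020761-83021060, minus strand), Ifi213 (chr1:173599223-173599522, minus strand) and Gbp7 (chr3:142530086-142530385, plus strand).
Slfn8: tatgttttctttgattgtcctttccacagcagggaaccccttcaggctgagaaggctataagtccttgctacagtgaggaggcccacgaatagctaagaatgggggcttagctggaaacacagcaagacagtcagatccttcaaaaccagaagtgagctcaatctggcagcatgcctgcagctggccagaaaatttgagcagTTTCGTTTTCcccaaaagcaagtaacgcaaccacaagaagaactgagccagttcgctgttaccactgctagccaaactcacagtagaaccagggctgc
Ifi213: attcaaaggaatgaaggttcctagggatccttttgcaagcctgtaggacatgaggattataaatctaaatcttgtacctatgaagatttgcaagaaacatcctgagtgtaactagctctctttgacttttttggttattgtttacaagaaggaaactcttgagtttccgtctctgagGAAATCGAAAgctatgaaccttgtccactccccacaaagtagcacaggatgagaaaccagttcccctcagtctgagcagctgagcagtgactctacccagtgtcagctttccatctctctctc
Gbp7: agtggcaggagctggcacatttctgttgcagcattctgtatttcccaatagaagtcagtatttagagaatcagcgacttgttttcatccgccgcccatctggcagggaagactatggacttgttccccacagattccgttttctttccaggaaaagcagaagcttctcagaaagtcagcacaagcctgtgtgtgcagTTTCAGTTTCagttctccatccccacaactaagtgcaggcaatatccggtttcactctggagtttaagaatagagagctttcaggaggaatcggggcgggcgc
On either strand the 10 letters were found in 20 of 33 list genes that have a window (60.6%), against 1079 of 27025 genes in all (3.99%). Of the 9 members with a window that were lower in every cluster where measured, 5 had it (55.6%). A match is a description of these letters and not of a bound site.

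**Figure D3:**
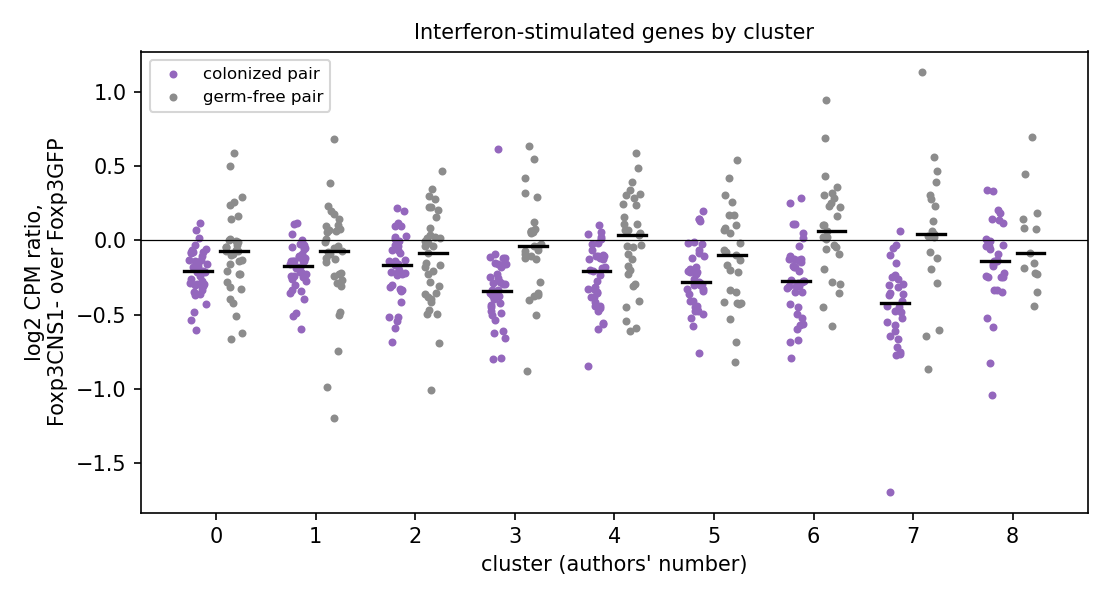
Log2 CPM ratio, Foxp3CNS1- over Foxp3GFP, of each measured interferon-stimulated list member by cluster, in the colonized pair and in the germ-free pair; each point is a gene and the bar is the median. The colonized medians lie between -0.42 and -0.14 in the 9 clusters, the germ-free medians between -0.10 and 0.07.

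Genes that differed in 1 cluster were sought as those past 2-fold there, with the interval's near bound past 1.2-fold, with no other measured cluster past 1.5-fold in that direction and with the other clusters summed within 1.2-fold. Of 5940 genes that could be judged, 38 were higher (0.640%) and 44 lower (0.741%) in Foxp3CNS1- cells. The clusters held between 3 and 13 each. With 49283 gene and cluster ratios looked through, some intervals leave 0 by counting alone, and the germ-free pair was looked up for the same genes. Of these 82 entries, in which Cks1b stands once on each side, 44 were measured there in the same cluster, 19 of them with the same sign, and 5 past 1.5-fold in that direction. Those 5 were Lig1 in cluster 0, Ikzf2 in cluster 1, and Gm5617, Ctdspl2 and Lman2l in cluster 2. Over all measured genes, 47.0% of the germ-free ratios were below 0, so a shared sign is common without a shared difference. The share past 1.5-fold in the same direction over all genes was not computed. These 5 are therefore no check of the single-cluster differences.

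Among the naive-like clusters, Ikzf2, which encodes the Treg-associated factor Helios, had 14.7 CPM in Foxp3CNS1- and 30.9 CPM in Foxp3GFP cells of cluster 1 (-1.07, -1.67 to -0.49) and a germ-free ratio of -1.09. Tnfrsf4, the costimulatory receptor OX40, had 24.4 and 45.1 CPM there (-0.88), and Foxp3 was lower too, as given above. Of 8 measured Treg markers of cluster 1, 5 were below 0 and 3 above, where 49.4% of all genes were above 0. On the lower side 4 of the 8 were past 1.5-fold, where 3.38% of all genes were. The median of the 8 was -0.51 (-0.25 in the germ-free pair). Treg markers were one-sided in the other naive-like cluster. In cluster 2, 12 of 12 measured Treg markers were below 0, with a median of -0.63 against -0.01 over all genes there, and 6 of 12 were past 1.5-fold on the lower side, where 3.74% of all genes were. In the germ-free pair it was otherwise, with 10 of 13 Treg markers of cluster 2 above 0 (median 0.15). The 12 markers below 0 in the colonized pair included Nrp1 (-1.01), a receptor of thymus-derived Treg cells, and Gpr83 (-0.90). Lrrc32 (-0.89), which presents latent TGF-beta, and Il2ra (-0.78), the high-affinity IL-2 receptor chain, were among them too. The 7 measured effector/memory markers of cluster 2 were also all below 0, with a median of -0.30 and 0 of 7 past 1.5-fold, while 8 of 8 were above 0 in the germ-free pair (median 0.20). The summed counts do not separate a difference in how many Treg cells the clustering placed in cluster 2 from one within its naive-like cells. Which of them applies was not tested.

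Higher in the naive-like clusters was Bcl2, which keeps lymphocytes alive, at 522 CPM in Foxp3CNS1- and 366 CPM in Foxp3GFP cells of cluster 1 (0.51). Ppp3cc, a catalytic subunit of the phosphatase calcineurin, had 59.0 and 28.5 CPM in cluster 1 (1.05), with 0.80 in cluster 2 and 0.82 in cluster 1 of the germ-free pair. Single-cluster genes of cluster 1 included Nagpa (1.23) and Epb41 (-1.14), a protein of the membrane skeleton; Zbtb2 (-1.44) was among its widest ratios without meeting that rule. Those of cluster 2 included the helicase Dhx40, at 66.4 CPM in Foxp3CNS1- and 32.0 CPM in Foxp3GFP cells (1.05), and Zc3h7a (-1.29). Scaf1 (-1.62) and Asb8 (-1.37) were among the widest ratios of cluster 2 without meeting that rule.

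In Treg-like cluster 3, which has the highest Foxp3, genes of extrathymic and effector Treg cells, the pTreg-associated list, leaned to one side. All 11 measured members were below 0, with a median of -0.42 against -0.01 over all genes, but 1 of 11 was past 1.5-fold on the lower side, where 3.46% of all genes were. In the germ-free pair 4 of 8 were below 0 (median 0.06). Il10, the suppressive cytokine, had 14.6 CPM in Foxp3CNS1- and 34.6 CPM in Foxp3GFP cells (-1.25), while in effector/memory-like cluster 5 its ratio was 0.43. Smaller ratios were those of Gzmb (-0.54), a granzyme, Prdm1 (-0.49), which encodes Blimp-1, the inhibitory receptor Lag3 (-0.46) and the transcription factor Maf (-0.42). Klrg1, a receptor of terminally differentiated Treg cells, is on the Treg marker list and not on this one. It had 26.7 CPM in Foxp3CNS1- and 51.5 CPM in Foxp3GFP cells (-0.95). The 15 measured Treg markers of cluster 3 went both ways, with 7 above and 8 below 0 (median -0.03). Homing genes were below 0 in 15 of 17 measured members, with a median of -0.18 and 0 of 17 past 1.5-fold. Gbp6, an interferon-induced GTPase, had a ratio of -1.01 here and was past 1.5-fold lower in 4 clusters, among them cluster 5 (-1.38). On the higher side of cluster 3 were Ralgds, an exchange factor for Ral GTPases, at 22.3 and 5.32 CPM (2.07), Nacc1 (1.56), Cyp51 (1.51), an enzyme of sterol synthesis, and Thoc3 (1.25). MHC class II genes were above 0 in 6 of 7 measured members of cluster 3, with a median of 0.30 and H2-Ab1, a chain of the presenting molecule, at 1.30. On the higher side 2 of 7 were past 1.5-fold, where 2.99% of all genes were. B and plasma cell genes were above 0 in 5 of 6 measured members of cluster 3. Cd74 and H2-Ab1 are on both lists, so the lists are not separate results. The summed level of B and plasma cell genes was 1532 CPM in Foxp3CNS1- and 1173 CPM in Foxp3GFP cells. Cells with these genes were not left out as such. Without immunoglobulin-rich cells, 216 of 230 single-gene values over all clusters stayed within the counting interval and 14 moved by more.

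The same pTreg-associated list had a median of 0.10 in Treg-like cluster 0 and -0.15 in Treg-like cluster 6, with 4 of 10 and 5 of 8 measured members below 0; the difference to cluster 3 was not tested. In cluster 0, Acadl, a mitochondrial enzyme of fatty acid oxidation, had 33.1 CPM in Foxp3CNS1- and 13.2 CPM in Foxp3GFP cells (1.32), and it was also higher in clusters 1, 2 and 6 (1.17, 1.22 and 0.74). The replication genes Mcm5 (1.27) and Lig1 (1.16) were higher in cluster 0, and 5 of the 6 measured proliferation markers were above 0 there, with a median of 0.13 and 1 of 6 past 1.5-fold. Ccr9, the receptor that guides T cells to the small intestine, had 53.4 CPM in Foxp3CNS1- and 26.4 CPM in Foxp3GFP cells of cluster 0 (1.01). Angptl2 (-1.39) was lower.

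In cluster 6, inhibitory receptors leaned to the higher side in both pairs of libraries. Pdcd1, which encodes PD-1, had 62.7 CPM in Foxp3CNS1- and 23.3 CPM in Foxp3GFP cells (1.43, 0.80 to 2.09), and the germ-free ratio was 0.42. Of 9 measured coinhibitory receptors, 8 were above 0, with a median of 0.56 against 0.05 over all genes, and 4 were past 1.5-fold on the higher side, where 4.32% of all genes were; 9 of 9 were above 0 in the germ-free pair (median 0.28). Among them were Cd160 (0.95), Lag3 (0.84), Btla (0.60) and Cd200 (0.56). Follicular helper markers were above 0 in 6 of 7 measured members, with a median of 0.43, and in 8 of 9 in the germ-free pair (median 0.49); Pdcd1 is on both lists. The cytokine Il4, at 30.3 and 12.1 CPM (1.33), is one of them and had a germ-free ratio of 3.53. Gpr183, a receptor that positions lymphocytes within follicles, had 99.6 and 46.7 CPM (1.09) and 1.10 in the germ-free pair. Lower in cluster 6 were Il2rb, the signalling IL-2 receptor chain that Treg cells use, at 258 and 411 CPM (-0.68), and Cd55 (-1.53), which limits complement, with germ-free ratios of -0.36 and -1.88. Members of the TGF-beta pathway were below 0 in 8 of 8 (median -0.32), with 0 of 8 past 1.5-fold, and the median turned to 0.0525 when cells were thinned to 1500 UMIs.

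**Figure D4:**
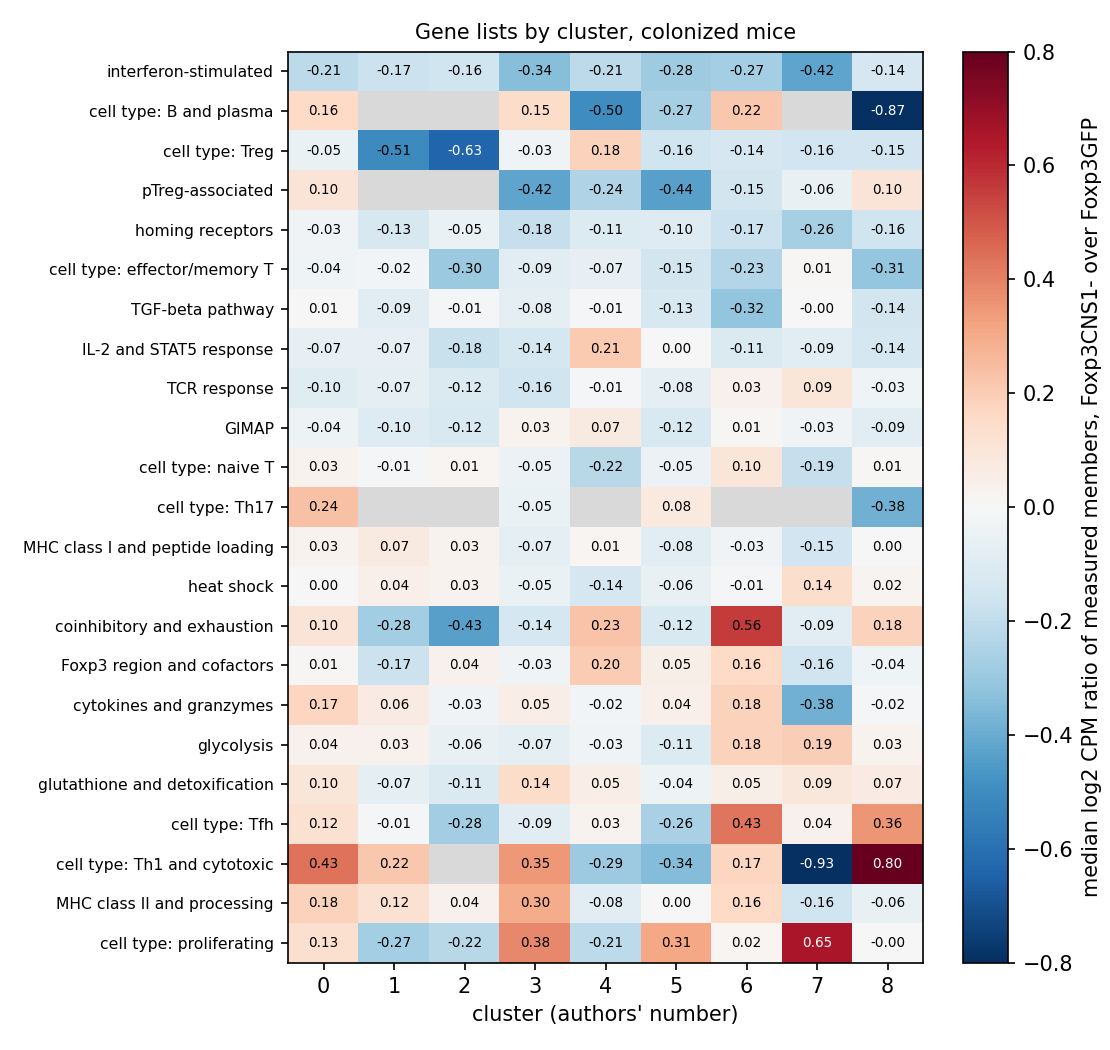
Median log2 CPM ratio, colonized Foxp3CNS1- over colonized Foxp3GFP, of the measured members of 23 gene lists in each of the 9 clusters, with blue below 0, red above 0 and grey where under 3 members were measured. The interferon-stimulated row is below 0 in all 9 clusters, while the Treg row is lowest in naive-like cluster 2 (-0.63).

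Effector/memory-like cluster 5 had the largest share of genes on the lower side of the 8 clusters other than cluster 7 (4.21%). Ccr9 had 30.1 CPM in Foxp3CNS1- and 79.2 CPM in Foxp3GFP cells (-1.40), the opposite sign to cluster 0. Gzmb had 160 and 355 CPM (-1.15) and Lag3 165 and 323 CPM (-0.97). Itgae (-0.79), the integrin chain that binds E-cadherin on epithelium, Cxcr3 (-0.63) and Maf (-0.54) were lower as well. Of 12 measured genes of the pTreg-associated list, 10 were below 0, with a median of -0.44 against -0.03 over all genes, and 5 were past 1.5-fold on the lower side. The germ-free pair lay the other way, with 6 of 7 measured members above 0 (median 0.23). Follicular helper markers were below 0 in 8 of 10 (median -0.26), with 2 of 10 past 1.5-fold. Higher was Nr4a1, an immediate early gene of T cell receptor signalling, at 21.5 and 6.67 CPM (1.69); it was under 50 UMIs in cluster 5 of the germ-free pair. The summed level of myeloid genes in cluster 5 was 639 CPM in Foxp3CNS1- and 419 CPM in Foxp3GFP cells, with 3 of 5 measured members above 0. Cells holding 3 or more UMIs of them were 29 of 819 in Foxp3CNS1- and 12 of 344 in Foxp3GFP, a similar share. Lyz1 was counted 310 times in Foxp3CNS1- cells, in 2 cells, and 0 times in Foxp3GFP cells, at least 44.4-fold higher against a floor of 3 counts in the library's cluster. Without cells holding 3 or more myeloid UMIs, 220 of 231 single-gene values over all clusters stayed within the counting interval. Of the others, 10 moved by more and 1 changed sign.

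Cluster 4 and cluster 7 stay without a cell type name. In cluster 4, Tnfsf8, the ligand of CD30, had 131 CPM in Foxp3CNS1- and 68.9 CPM in Foxp3GFP cells (0.93), and Tgfbr1, the kinase chain of the TGF-beta receptor, had 63.7 and 32.0 CPM (0.99). Dapl1, a marker of naive T cells, had 115 and 193 CPM (-0.75), and 11 of 12 measured naive markers were below 0, with a median of -0.22 against 0.01 over all genes and 1 of 12 past 1.5-fold. Gzmb was lower there too (-1.33), as it was in cluster 6 (-1.24), and higher in clusters 0 and 8 (0.77 and 0.80). In cluster 7, all 13 measured proliferation markers were above 0, with a median of 0.65, led by Ube2c (2.02) at 201 CPM in Foxp3CNS1- and 49.7 CPM in Foxp3GFP cells. That reading rests on very few cells, since 3 cells held 93.1% of the Ube2c UMIs in Foxp3CNS1- and 90.0% in Foxp3GFP cells, and without the cells of highest UMI count the list median was -0.72. Il2ra (-0.99) and Malt1 (-1.33), which relays T cell receptor signals to NF-kappaB, were lower in cluster 7.

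In proliferating-like cluster 8, 8 of 9 measured follicular helper markers were above 0, with a median of 0.36 against 0.02 over all genes, and 2 of 9 were past 1.5-fold on the higher side, where 3.55% of all genes were. With cells thinned to 1500 UMIs the median was -0.00716, and in the germ-free pair 0 of 6 measured members were above 0 (median -0.28). Cxcr5, which guides cells into follicles, had 64.2 CPM in Foxp3CNS1- and 33.6 CPM in Foxp3GFP cells (0.93), and Tox2 had 51.0 and 25.3 CPM (1.01). Tnfsf8 had 93.3 and 39.9 CPM (1.23); besides clusters 4 and 8, it was past 1.5-fold in cluster 7 (1.26) and cluster 2 (0.66). Treg markers were below 0 in 12 of 14 (median -0.15), with Foxp3 as given above and Lrrc32 at -0.86. On the lower side 2 of 14 were past 1.5-fold, where 2.98% of all genes were. In the germ-free pair 5 of 10 measured Treg markers were below 0 (median -0.02). S100a4, a calcium-binding protein of effector cells, had 50.2 and 103 CPM (-1.04), and Klf2, which keeps cells recirculating, had 241 and 365 CPM (-0.60).

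Cytokine genes of cluster 8 differed widely but through single cells. Il17a, the hallmark cytokine of Th17 cells, had 6.58 CPM in Foxp3CNS1- and 41.2 CPM in Foxp3GFP cells (-2.64), with 100% and 95.4% of its UMIs in 3 cells. Il17f (-1.75), Ccl20 (-3.86) and Penk (-1.98) were lower too. On the higher side, Il2 had 38.7 and 15.2 CPM (1.35), with 78.7% and 87.5% of its UMIs in 3 cells. The chemokine Xcl1 was counted 158 times in Foxp3CNS1- and 0 times in Foxp3GFP cells, at least 34.2-fold higher, with 98.1% of the UMIs in 3 cells. B and plasma cell genes were below 0 in 7 of 7 measured members of this cluster. Jchain stood at -5.98, from 6 and 246 UMIs, and Mzb1 at -5.35, from 2 and 53 UMIs. The summed level of the list was 294 CPM in Foxp3CNS1- and 562 CPM in Foxp3GFP cells. Their part in the other differences was not tested beyond the run without immunoglobulin-rich cells given above. In the Foxp3GFP cells, 3 cells held 99.6% of the Jchain and 100% of the Mzb1 UMIs. Gzma, a granzyme, was likewise far higher in clusters 5, 6 and 8 (2.85, 2.48 and 2.78) and lower in cluster 7 (-3.06), and in cluster 5 it had 78.4% of its Foxp3CNS1- UMIs in 3 cells.

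**Figure D5:**
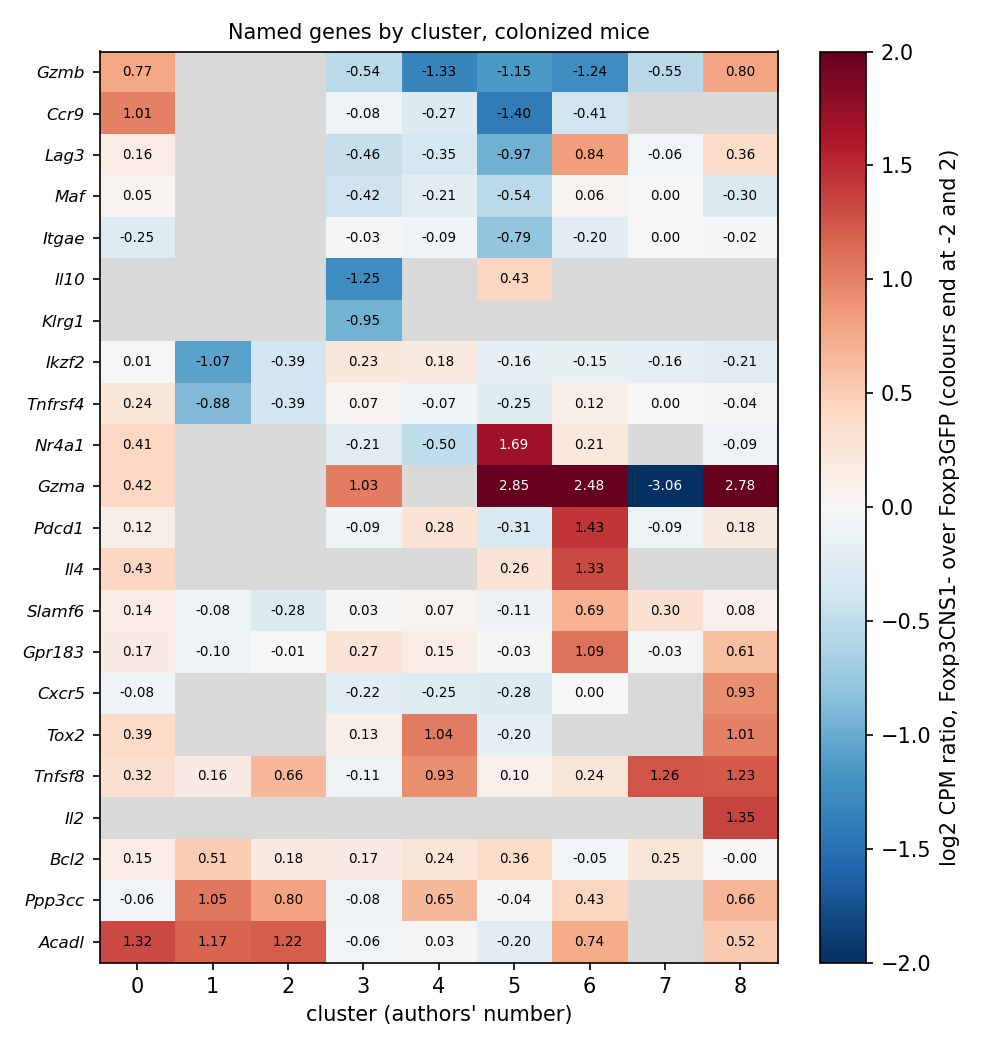
Log2 CPM ratio, colonized Foxp3CNS1- over colonized Foxp3GFP, of 22 genes named in the text, by cluster; grey cells hold under 50 UMIs. Ccr9 and Lag3 change sign between clusters, with Ccr9 at 1.01 in cluster 0 and -1.40 in cluster 5, and Lag3 at 0.84 in cluster 6 and -0.97 in cluster 5.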

How the data were processed

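CD4 T cells of mesenteric lymph nodes were profiled by droplet-based 3′ RNA sequencing (Chromium 3′ v3 per the labels' protocols, about 5000 cells targeted per library). Per the submitters' processing notes, Cell Ranger and Scanpy 1.5.1 were used with the mm10 build; the sources used here give no other settings. The authors deposited whole-number UMI counts, not normalized, for 17478 cells and 13314 genes, and a cell table with library, filter flag and cluster for 17251 of them. Kept were the 16948 cells the authors' filter passed; 227 cells without an entry and 303 removed by the authors were left out. The deposited files do not record how doublets were treated, and no doublet caller was run here. No column of another series was present (0), and 4 columns of the cell table were not used.

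Counts were summed per library and cluster in Python 3.11.15 (numpy 2.4.6, pandas 2.3.3) and divided by the cluster's total to give CPM. Ratios have Clopper-Pearson 95% intervals from SciPy 1.17.1, with a floor of 3 counts per library and cluster against 0. The mix-fixed ratio is the Mantel-Haenszel ratio over clusters, on a log2 scale. The scripts were tested on simulated data. UMI intervals cover counting error only, and the pooled mice cannot be separated. With 1 library per group no test was possible.

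Named genes are those ranked highest by the interval bound nearest to 0, up to 3 per cluster and direction, up to 12 every-cluster and up to 4 per list. The genes Il2, Il4, Slamf6, Ccl20, Itgae, Maf, Lag3, Isg20, Irf7, Zbp1, Ifi27l2a, Slfn8, Ifi209, Mzb1, Tnfsf8, Gm47283, Nrp1 and mt-Atp6, and other list members given with a ratio alone, were named after their values were seen. The comparison, the lists and the rules were chosen with earlier results of these data known. Some genes are not reported here.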

Additional observations from a re-analysis of the deposited data

Results flagged for a closer look

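Each value below is a log2 CPM ratio, Foxp3CNS1- over Foxp3GFP, and was picked out because the ratio had opposite signs with counting intervals off 0 in both places. None of these differences was tested, since each ratio compares 1 library with 1 other.

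In 5 genes the colonized pair and the germ-free pair disagreed with the cluster mix fixed. Gstp1 stood at -0.71 in the colonized and 0.48 in the germ-free pair, Polr2l at -0.65 and 0.55, and Snhg9 at -0.65 and 0.62. The predicted genes Gm49980 and Gm2000 stood at -0.69 and 0.52 in the colonized pair and at 0.69 and -0.29 in the germ-free pair. Single clusters showed it for Gstp1 too, with -0.81 colonized and 0.35 germ-free in cluster 0, and -0.94 and 0.64 in cluster 1. In cluster 7 the interferon-stimulated Ly6a had -0.64 in the colonized and 0.56 in the germ-free pair, and the histone gene Hist1h2ap had -1.08 and 1.503. Ola1 had -1.01 and 0.70 in cluster 6. Id2, an inhibitor of E proteins, had 0.69 in the colonized and -0.70 in the germ-free pair in cluster 8.

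In 18 genes, clusters of the colonized pair disagreed. Receptors and effector genes were among them. Ccr9 had 1.01 in cluster 0 and -1.40 in cluster 5, and Ccr2 had 0.72 in cluster 0 and -0.98 in cluster 7. Lag3 had 0.84 in cluster 6 and -0.97 in cluster 5, Gzmb 0.80 in cluster 8 and -1.33 in cluster 4, and Gzma 2.85 in cluster 5 and -3.06 in cluster 7. Penk had 0.91 in cluster 6 and -1.98 in cluster 8, and Plac8 had 1.22 in cluster 1 and -0.99 in cluster 5. Genes of antigen-presenting or B lineage cells did the same between clusters 3 and 8, with 1.30 and -0.87 for H2-Ab1 and 0.73 and -5.98 for Jchain. Of the Jchain UMIs, 3 cells held 99.4% in Foxp3CNS1- cells of cluster 3 and 99.6% in Foxp3GFP cells of cluster 8.

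Cell cycle and replication genes with opposite signs were Cks1b (1.10 in cluster 7 and -1.39 in cluster 4), Stmn1 (0.89 in cluster 7 and -0.69 in cluster 1), Lig1 (1.16 in cluster 0 and -0.81 in cluster 6) and Tipin (1.02 in cluster 2 and -0.77 in cluster 5). The cluster 7 values depend on few cells. Cks1b was -0.18 there without cells holding 3 or more myeloid UMIs. The median of the proliferation list, which holds Stmn1, was -0.72 there without cells past UMI percentile 98. Nfkbid, an inhibitor of NF-kappaB, had 0.86 in cluster 2 and -0.91 in cluster 5. The others were Acsbg1 (1.23 in cluster 4 and -0.94 in cluster 8), Card19 (1.46 in cluster 6 and -0.68 in cluster 4), Lgals3 (1.955 in cluster 7 and -0.93 in cluster 8) and Ubtf (0.74 in cluster 6 and -1.26 in cluster 7).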

How the results depend on the processing

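The counts of genes depend on how many UMIs a gene must have. Summed over clusters, 1540 gene and cluster ratios were past 1.5-fold on the higher and 1612 on the lower side. With at least 200 UMIs they were 71 and 82, every-cluster genes 0 and 0, single-cluster genes 0 and 1, and same-direction genes 2 and 3, where they had been 1 and 1, 38 and 44, and 6 and 13. With at least 20 UMIs the sums were 4585 and 4946, single-cluster genes 78 and 82, and same-direction genes 13 and 28. A 2-fold threshold, or 3-fold for the single-cluster rule, gave 182 and 168, every-cluster genes 0 and 0, and single-cluster genes 2 and 1. Equal weight per cell gave 90 and 72 single-cluster genes. Thinning each cell to 1500 UMIs, which left out 261 Foxp3CNS1- and 181 Foxp3GFP cells, gave 987 lower ratios, every-cluster genes 0 and 0, 19 lower single-cluster genes, and same-direction genes 1 and 7. Higher same-direction genes were 2 without immunoglobulin-rich cells, where lower single-cluster genes were 29, and 3 after leaving out cells with UMI totals past percentile 98, after leaving out cells with heat shock transcripts (Hspa1a or Hspa1b), and over the 7 clusters with at least 300 cells, where single-cluster genes were 21 and 27. Higher every-cluster genes were 0 without the 3 top cells of each gene and 0 without cells holding 3 or more myeloid UMIs, a setting added after seeing the data. Fewer counts or clusters enter under several of these settings; beyond that, the cause was not tested. Median centring, a CPM total without immunoglobulin, receptor, ribosomal and mitochondrial genes, and leaving out shared barcodes, added after seeing the data, moved none of these counts past 1.5 times.

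The interferon-stimulated median was below 0 in every cluster compared under each setting, between -0.58 and -0.03. Reversed were Il17f in cluster 8 with equal weight per cell (0.29), the Tfh list in cluster 8 (-0.00716) and the TGF-beta list in cluster 6 (0.0525) when thinned, the proliferation list in cluster 7 when cells past UMI percentile 98 were left out (-0.72), and Cks1b in cluster 7 without myeloid cells (-0.18). Of 2781 values of single genes under an alternative, 2689 moved by less than the counting interval, 90 by more and 2 changed sign. Many of these could not move, since a gene's ratio in a cluster does not depend on the UMI minimum or on the other clusters kept. Median centring and the other CPM total shift all genes of a cluster alike. When thinned, 21 of 116 values moved by more. With equal weight per cell, 16 of 256 moved by more and 1 changed sign. No replicate could be left out, since each group has 1 library. No paired analysis was possible because each group has 1 library.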
